A study of Gossypium hirsutum with 42 samples.

Results

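The Aux/IAA proteins are short-lived repressors of the plant hormone auxin. They bind the auxin response factors (ARFs), the DNA-binding proteins that switch auxin genes on, and recruit co-repressors of the TOPLESS family to them. Auxin joins an Aux/IAA protein to an F-box receptor of the TIR1/AFB family, the repressor is degraded, and the ARF is released. Many Aux/IAA genes are themselves switched on by auxin, so their transcripts are commonly read as auxin-responsive, and in seedlings the family is known for its part in root branching, cell expansion and leaf growth.

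The genes described here are the rows of an expression table of upland cotton (Gossypium hirsutum) whose description names an Aux/IAA protein, an indole-3-acetic acid inducible protein or a phytochrome-associated protein. Of 100881 rows, 48884 carry a description and 105 matched. Of these, 85 are Aux/IAA repressors, 14 are ARF-type genes whose description mentions the Aux/IAA-related domain, 4 are phosphatases named for their association with phytochrome, and 2 are GH3-type enzymes that conjugate auxin to amino acids. The 4 phosphatases were set apart after their descriptions were read. The report is about the 85 repressors, and the other 20 rows are given at the end.

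RNA of root and leaf was sequenced in seedlings of 4 inbred parents and 3 of their F1 hybrids, grown in nutrient solution until the first true leaves had expanded. The parents were A (SJ48, the mother of every hybrid), B (Z98-15), C (851-2) and D (DT-8). The hybrids were H (A with B), M (A with C) and L (A with D), which the study ranked high, medium and low for yield heterosis. Each of the 14 groups held 3 libraries, and root and leaf came from the same plants; no treatment was applied, and the time of day of harvest is not stated. Each F1 was a single cross of inbred lines, so p-values measure the spread between libraries of a genotype and not between crosses.

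Values are FPKM as deposited, that is, sequenced fragments scaled to the length of the transcript and to the mapped fragments of the library. They sum to between 391455 and 462952 per library, highest in replicate 1 of M leaf, and the file holds no read counts, so the depth behind a single value is not known. The study lists mean valid reads per group, which in root were fewer in every hybrid than in every inbred. In leaf they were fewer in every hybrid than in A and B, but not fewer than in C. The part of this in the differences below was not tested. Leaf marker genes (80 rows) summed to 23200 to 30297 FPKM in leaf and 208 to 513 in root, and root marker genes (76 rows) to 161 to 322 FPKM in root and 62.1 to 97.1 in leaf. By these sums both lists followed the tissue labels in all 42 libraries. Row by row, with the limits given below, 65 of 70 leaf markers tested were higher in leaf and 2 higher in root. Of 33 root markers tested, 12 were higher in root and 2 higher in leaf, so the root list followed the labels in its sum only. In bulk tissue a smaller number of cells of a type and less RNA per cell cannot be told apart.

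By description the 85 repressors fall into 14 unnumbered Aux/IAA genes, 10 IAA16-type genes, 7 each of the IAA9, IAA11, IAA29, IAA30 and phytochrome-associated protein 2 (PAP2) types, 6 each of the IAA14 and phytochrome-associated protein 1 (PAP1) types, 4 IAA19-type, 3 IAA18-type, 2 each of the IAA8, IAA20 and IAA33 types, and 1 IAA10-type gene. The numbers are those of the Arabidopsis proteins in the descriptions, and PAP1 and PAP2 are older names of Aux/IAA proteins. The A and D subgenomes hold 42 each and 1 lies on an unplaced scaffold. The 14 unnumbered genes lie on 7 chromosome numbers, with 1 gene in the A and 1 in the D subgenome on every one of them. Consecutive gene numbers joined 10 pairs of repressors, and 8 of the 14 unnumbered genes stand in such a pair, 4 with an IAA16-type and 4 with an IAA14-type gene. No sequence of these genes was used here.

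A gene was tested in a tissue where it reached 1 FPKM in at least 3 libraries, which 64 repressors did in root and 68 in leaf. The remaining repressors were low, among them all 7 IAA30-type and both IAA33-type genes in both tissues, and 1 was at 0 in every leaf library. In root the highest mean FPKM belonged to Gh_A06G0239 (IAA9-type, 38.5), Gh_A02G0341 (IAA14-type, 34.9), Gh_D05G3823 (IAA8-type, 32.8), Gh_A05G3764 (IAA9-type, 30.5) and Gh_D03G0315 (IAA9-type, 24.5). In leaf it belonged to Gh_D13G1818 (47.5) and Gh_A13G1489 (46.4), both IAA16-type, followed by Gh_A05G3764 (35.8), Gh_A02G0341 (31.2) and the IAA16-type Gh_A11G1164 (30.2). Expression was spread over the family, the 5 leading genes holding 28.8% of the summed FPKM in root and 30.6% in leaf.

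The first question was whether the family as a whole stood at another level in hybrids. The summed FPKM of the 85 repressors in leaf ran from 494 to 556 (median 538) in the 9 hybrid libraries and from 633 to 763 (median 670) in the 12 inbred libraries. In root it ran from 580 to 639 (median 617) in the hybrids and from 480 to 563 (median 523) in the inbreds. The groups did not overlap in either tissue, and they stood in opposite order: the hybrids were lower in leaf and higher in root. These sums are given as a description, with no test. The FPKM sum over all genes was also higher in hybrid root (405961 to 419900) than in inbred root (391455 to 402357), while in leaf it ran from 406034 to 462952 in hybrids and from 397004 to 415323 in inbreds. The part of this in the family sums was not tested.

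**Figure D1:**
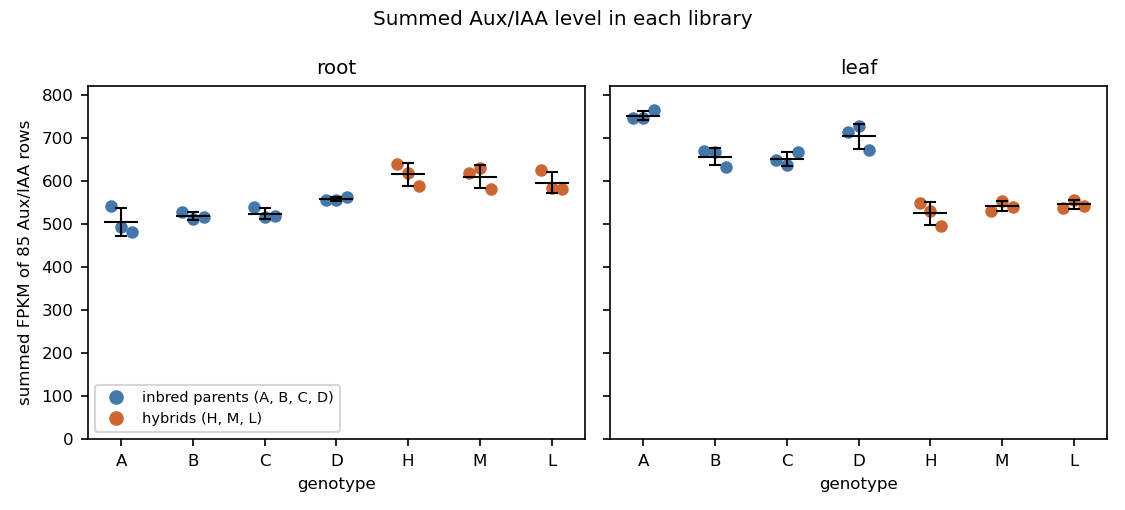
Summed FPKM of the 85 Aux/IAA rows (y axis) in each library of the 7 genotypes (x axis), root on the left and leaf on the right. Points are libraries, and black marks give the mean and SD of 3 libraries. The hybrids (orange) lie at 580 to 639 in root, above every inbred library, and at 494 to 556 in leaf, below every inbred library.

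By genotype the leaf sum was 751 ± 10.4 FPKM in A, 703 ± 29.2 in D, 656 ± 20.4 in B and 650 ± 15.3 in C (SD, n = 3 each). It was 545 ± 9.67 in L, 541 ± 11.7 in M and 524 ± 27.4 in H. The 3 hybrids lay within each other's spread, as did B and C. In root the sum was 615 ± 25.9 in H, 610 ± 25.6 in M and 596 ± 24.8 in L, again within each other's spread, against 557 ± 4.54 in D, 524 ± 12.9 in C, 518 ± 9.20 in B and 504 ± 32.4 in A. No order of the 3 hybrids could be read from the family sum in either tissue.

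In leaf the difference between the group means was -154 FPKM, and the IAA14, IAA16 and unnumbered types held most of it. IAA14-type genes summed to 151 FPKM in inbreds and 94.9 in hybrids, IAA16-type genes to 203 and 163, and unnumbered genes to 92.3 and 53.2. IAA9-type genes, also abundant, stood at 101 and 93.4, and the IAA8-type at 27.0 and 28.6. In root the difference was 80.9 FPKM, with IAA9-type genes at 140 in inbreds and 169 in hybrids and IAA16-type genes at 79.4 and 102, while IAA14-type genes stood at 98.2 and 86.0.

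Gene by gene, differences were taken on the scale log2(FPKM + 1), which understates the change of low genes, between the mean of the 3 hybrids and the mean of the 4 inbreds. A gene was called when limma gave an adjusted p (Benjamini-Hochberg, over all genes tested in the tissue) under 0.05 together with a log2 difference beyond 1. In leaf 6 of the 68 repressors fell and 0 rose, which is 8.82% of them. Over all 54835 leaf genes 0.934% fell and 1.63% rose. All 6 were unnumbered Aux/IAA genes, and they were the A and D genes of 3 chromosome numbers: Gh_A02G0340 and Gh_D02G0405, Gh_A10G1020 and Gh_D10G1512, and Gh_A11G2242 and Gh_D11G2553. How reads that match more than 1 copy were assigned is not stated in the sources used here, so whether the A and D genes of a pair were measured independently is not known.

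Gh_D10G1512 showed the largest leaf difference. Its FPKM was 7.06, 5.56 and 5.78 in A, 6.33, 5.57 and 4.94 in B, 6.72, 5.6 and 6.24 in C, and 8.82, 10.6 and 9.56 in D. In the hybrids it was 2.25, 1.32 and 1.75 in H, 1.26, 1.55 and 1.02 in M, and 2.22, 2.00 and 2.26 in L. Each hybrid library lay below each inbred library, and D was the highest genotype. The log2 difference was -1.52 ± 0.0682 (SE; limma adjusted p = 1.68e-11), and the hybrid mean was 0.252 of the inbred mean in FPKM.

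Its A-subgenome counterpart by chromosome number, Gh_A10G1020, ran from 1.26 to 3.78 FPKM (median 1.95) in the 9 hybrid leaf libraries and from 3.85 to 8.22 (median 6.28) in the 12 inbred ones. The groups did not overlap, although the highest L library nearly reached the lowest C library. The log2 difference was -1.24 ± 0.104 (SE; limma adjusted p = 5.25e-08). A second, undescribed locus carries the name Gh_A10G1020 and was at 0 in every inbred leaf library, with a hybrid leaf mean of 0.0524 FPKM, so it adds almost nothing to this gene in leaf. In root that locus had a mean of 0.289 FPKM in hybrids and 0.0871 in inbreds, beside 1.19 and 0.993 at the described locus. The second locus was not added to the values of this gene in either tissue.

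On chromosome number 2, Gh_D02G0405 ran from 1.36 to 3.65 FPKM (median 2.03) in hybrid leaf and from 5.0 to 8.61 (median 7.21) in inbred leaf. Gh_A02G0340 ran from 1.23 to 3.81 (median 2.11) against 4.71 to 8.73 (median 6.59). Neither overlapped, and M was the lowest genotype for both, at 1.57 ± 0.231 and 1.57 ± 0.337 FPKM (SD, n = 3). Their log2 differences were -1.32 ± 0.101 and -1.25 ± 0.0917 (SE; limma adjusted p = 1.92e-08 and 1.07e-08).

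On chromosome number 11, Gh_A11G2242 ran from 1.36 to 3.48 FPKM (median 1.83) in hybrid leaf and from 3.51 to 7.11 (median 5.35) in inbred leaf, with a log2 difference of -1.10 ± 0.0888 (SE; limma adjusted p = 3.62e-08). Gh_D11G2553 ran from 1.2 to 3.66 (median 1.86) against 2.87 to 7.80 (median 4.93), the only one of the 6 whose groups overlapped. Its overlap lay between L in the hybrids and B in the inbreds. Its log2 difference of -1.03 ± 0.0722 (SE; limma adjusted p = 5.98e-09) is just past the limit, and it missed the limit, at -0.997 to -0.981, without replicate 2 of D, replicate 3 of M or replicate 3 of L.

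**Figure D2:**
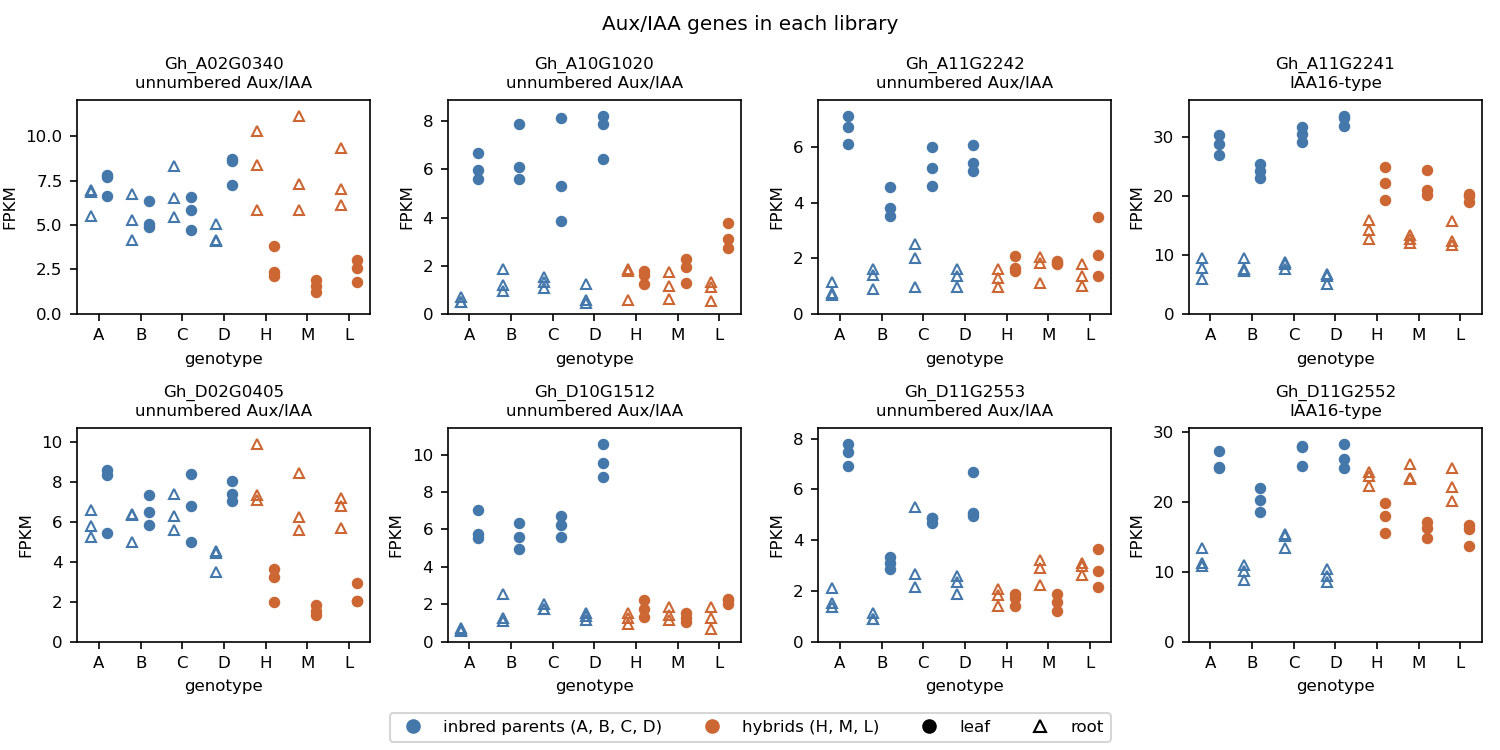
FPKM (y axes, each from 0) of the 6 called leaf genes and of the 2 IAA16-type neighbours on chromosome number 11, in each library of the 7 genotypes (x axes). Filled circles are leaf, open triangles root, blue the inbred parents and orange the hybrids. The orange circles of Gh_D10G1512 lie at 1.02 to 2.26 and its blue circles at 4.94 to 10.6, while in root the hybrids and inbreds overlap for all 6 called genes.

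The count of 6 stayed 6 without replicate 1 of M leaf, and also when only C, D and the hybrids were kept, the leaf groups with the lower base quality (Q20) in the sequencing summary of the study. It also stayed 6 when each genotype mean was taken as 1 unit. In that last fit the spread is that between genotypes rather than between libraries, and the counts by the adjusted p alone, given next, were much smaller. The genotype means are not independent units either, since the hybrids share the mother A and their fathers are the other inbreds.

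Just outside the log2 limit lay 2 abundant IAA14-type genes, named after their values were seen. Gh_D02G2389 ran from 16.6 to 20.2 FPKM (median 18.3) in hybrid leaf and from 31.3 to 44.8 (median 37.0) in inbred leaf, with a log2 difference of -0.97 ± 0.0524 (SE; limma adjusted p = 1.86e-10). Gh_A02G0341, whose gene number follows that of Gh_A02G0340, ran from 16.4 to 26.0 (median 22.0) against 32.9 to 46.4 (median 38.7), with a log2 difference of -0.80 ± 0.0445 (SE; limma adjusted p = 2.75e-10). Neither overlapped. The difference of the means was -18.8 and -16.6 FPKM, the largest of all repressors in leaf, and exceeded the highest value of any of the 6 called genes, 10.6 FPKM.

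With the adjusted p alone and no log2 limit, 34 repressors were lower and 3 higher in hybrid leaf. Over all leaf genes these shares were 13.4% lower and 24.3% higher. With genotype means as units 15 were lower and 1 higher, and the share over all genes in that fit is not given. By type the lower ones were 11 of 14 unnumbered, 7 of 10 IAA16-type, 4 of 6 IAA14-type, 4 of 5 PAP2-type, 3 of 6 IAA11-type, 3 of 7 IAA9-type, 1 of 7 IAA29-type and the IAA10-type gene. The 3 higher were 2 of 7 IAA9-type and 1 of 10 IAA16-type genes. None of the 5 PAP1-type, 3 IAA18-type and 2 IAA19-type genes tested passed the adjusted p. The median log2 difference of the 68 was -0.20, beside 0.07 over all leaf genes, and 55 of the 68 lay below 0.

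All 9 hybrid libraries lay below all 12 inbred libraries for 10 repressors in leaf, where 2.13% of all leaf genes did so. Beside 5 of the called genes these were the 4 IAA14-type genes Gh_A02G0341, Gh_D02G2389, Gh_D07G2125 and Gh_Sca006585G01 and the IAA9-type Gh_D06G2318. The opposite order held for 1 repressor, the IAA9-type Gh_A02G1406, where 3.74% of all leaf genes showed it. Gh_A02G1406 ran from 8.06 to 9.20 FPKM in hybrids and from 6.05 to 7.75 in inbreds.

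Each hybrid was then set against its own parents, the comparison that asks whether a hybrid left the range of both. A gene counted as beyond both parents when it was called in the same direction against each. The comparisons with A and with the father share the hybrid libraries, and A is shared by the 3 hybrids, so only counts are given. In leaf 3 repressors of H, 6 of M and 4 of L were below both parents and 0 were above. Over all leaf genes 0.801% lay below both parents in H, 1.21% in M and 0.657% in L, and 1.5%, 1.61% and 0.961% lay above. The count for H became 5 with a pseudocount of 0.1 and also 5 with quantile normalization, with Gh_A11G2242 and Gh_D02G0405 added in each, so no order of the hybrids is read from these counts.

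Gh_D10G1512 was below both parents in all 3 hybrids. It differed on the log2 scale by -1.37 from A and by -1.26 from B in H, -1.65 from A and -1.66 from C in M, and -1.17 from A and -1.75 from D in L (limma adjusted p at most 2.97e-06 in these 6 comparisons). Gh_A02G0340, Gh_D02G0405 and Gh_A11G2242 were below both parents in M and L. In H they were called lower than A, while their differences from B were -0.80, -0.96 and -0.84, inside the limit. Gh_A10G1020 was below both parents in H and M, and in L its difference from A was -0.76.

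Gh_D11G2553 was below both parents in M, at -1.73 from A and -1.2 from C. In H and L it was called lower than A (-1.66 and -1.13) and not than the father (-0.63 from B and -0.77 from D). A itself was the highest genotype for this gene, at 7.40 ± 0.438 FPKM against 3.11 ± 0.240 in B (SD, n = 3).

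Gh_A13G1490, another unnumbered gene, was below both parents in H alone. Its leaf FPKM was 8.73, 10.4 and 9.35 in H, against 22.8, 27.6 and 28.7 in A and 21.7, 17.1 and 22.4 in B. The H libraries all lay below both parents, and the log2 difference was -1.38 against A and -1.02 against B (limma adjusted p = 5.98e-06 and 2.31e-04). L, at 18.7, 22.7 and 19.9, did not follow, and H minus L was -1.03 (limma adjusted p = 1.58e-03). That was the one repressor called between 2 hybrids in leaf, where 0.595% of all genes were called in H minus L, 1.12% in H minus M and 0.64% in M minus L. It lost that call without replicate 1 of H or replicate 2 of L, and 2 members were called between hybrids without replicate 1 of M.

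**Figure D3:**
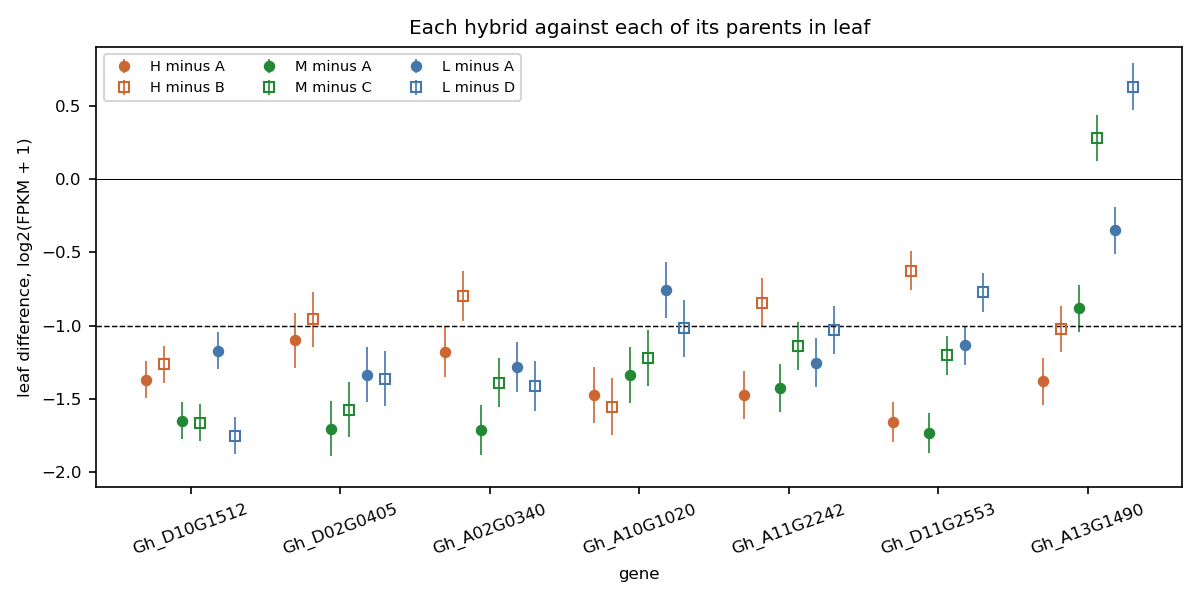
Leaf log2(FPKM + 1) difference (y axis) of each hybrid from its mother A (filled circles) and from its father (open squares) for the 7 repressors below both parents in at least 1 hybrid (x axis). Bars are standard errors, and the dashed line is the limit of -1. Gh_D10G1512 lies below the line in all 6 comparisons, while Gh_A13G1490 crosses 0, from -1.38 in H minus A to 0.63 in L minus D.

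Against single parents in leaf, the number of repressors called lower was 10 in H minus A, 3 in H minus B, 8 in M minus A, 6 in M minus C, 7 in L minus A and 5 in L minus D, with 0 called higher in any of them. In these comparisons, in that order, 1.87%, 1.07%, 2.66%, 2.18%, 1.76% and 1.02% of all leaf genes were called lower and 3.26%, 2.43%, 3.66%, 2.3%, 3.13% and 1.94% higher. In every hybrid more repressors were called lower than the mother A than lower than the father. The shares over all leaf genes stood in the same order, so this is not read as particular to the repressors.

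In root no repressor was called between hybrids and inbreds, 0 of 64 by limma, since none had a log2 difference beyond 0.98. With a pseudocount of 0.1, which gives low genes larger differences, 4 repressors were called higher (Gh_D11G2552, Gh_A05G0429, Gh_D06G0506 and Gh_D05G0138), and within the groups of lower Q20 (D and the hybrids in root) 2 were. At an unadjusted p under 0.05 with no log2 limit 32 repressors were higher and 5 lower. For these other settings no share over all genes is given. With the adjusted p and the log2 limit, 1.28% of all 59282 root genes rose and 0.847% fell. With the adjusted p alone 27 repressors were higher and 4 lower, beside 21.5% and 14.6% of all root genes. These counts became 7 and 0 with genotype means as units and 14 and 5 within the groups of lower Q20. The shares over all genes in those fits are not given. The median log2 difference was 0.15, beside 0.05 over all root genes, and 51 of the 64 lay above 0. By type the higher ones were 5 of 6 IAA29-type, 4 of 7 IAA9-type, 4 of 10 IAA16-type, 4 of 11 unnumbered, 3 of 5 PAP1-type, 3 of 7 IAA11-type, 2 of 3 IAA18-type, 1 of 5 PAP2-type genes and the 1 IAA8-type gene tested. The 4 lower ones were 1 each of the IAA14, IAA16, PAP1 and unnumbered types. The IAA29-type genes Gh_A05G0429, Gh_A07G0317, Gh_D05G0138 and Gh_D07G0374 had inbred root means of 0.674, 0.568, 0.335 and 0.511 FPKM, under the filter limit. Their hybrid means were 1.86, 1.15, 0.868 and 0.839, and Gh_D06G0506 stood at 0.737 in inbreds and 1.65 in hybrids. Such genes can pass the filter through hybrid libraries, so their part in these counts is not taken as support for a rise.

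The genes nearest the limit in root were the 2 IAA16-type genes that neighbour the called leaf genes of chromosome number 11. Gh_D11G2552 ran from 20.2 to 25.5 FPKM (median 23.4) in hybrid root and from 8.53 to 15.4 (median 10.9) in inbred root. The groups were far apart, the hybrid mean being 2.03 times the inbred mean, yet the log2 difference was 0.98 ± 0.0535 (SE; limma adjusted p = 9.43e-10), inside the limit by a margin smaller than its error. It passed the limit, at 1.003 and 1.004, without replicate 1 of A or replicate 2 of L, at 1.04 with a pseudocount of 0.1, and at 1.22 within the groups of lower Q20.

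Gh_A11G2241 ran from 11.7 to 15.8 FPKM (median 12.7) in hybrid root and from 5.08 to 9.54 (median 7.64) in inbred root, with a log2 difference of 0.77 ± 0.0788 (SE; limma adjusted p = 1.16e-06) that was 1.03 within the groups of lower Q20. Together with the IAA16-type Gh_A13G1489 and the IAA9-type Gh_A05G3764, these were the 4 repressors whose hybrid root libraries all lay above the inbred ones, where 1.85% of all root genes did so. None lay wholly below, where 1.5% of all genes did.

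Against its own parents in root, the IAA29-type Gh_A05G0429 was above both in H. Its FPKM was 2.55, 3.76 and 1.01 in H, 0.406, 0.622 and 0.677 in A, and 0.529, 0.297 and 0.712 in B. The H libraries were all higher but spread widely, and the log2 differences were 1.05 and 1.11 (limma adjusted p = 6.72e-03 and 7.53e-03). Every A and B value lay under the filter limit of 1 FPKM, so neither parent brought this gene into the test. The call is therefore given as a description and not as support for a rise. No repressor was beyond both parents in M or L in root. Over all root genes 0.972% lay above both parents in H, 0.803% in M and 0.837% in L, and 0.439%, 0.396% and 0.658% lay below. The 2 members counted for H, this gene and an ARF-type gene given later, became 0 without replicate 1 of H, 1 without replicate 2 of H or replicate 2 of B, and 0 with quantile normalization.

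Against single parents in root, again with shared libraries, Gh_D11G2552 was called higher in H than in B (1.16) and in L than in D (1.16), where Gh_A11G2241 was also higher (1.02). With Gh_A05G0429 this made 1 repressor higher in H minus A, 2 in H minus B and 2 in L minus D, beside 2.41%, 1.73% and 2.66% of all root genes. In M the unnumbered genes Gh_A13G1490 (1.11) and Gh_D13G1819 (1.06) were higher than in A. The IAA16-type Gh_D05G1216 was lower than in A in M (-1.25) and L (-1.13). Of all root genes 1.78% were higher and 1.77% lower in M minus A and 1.84% lower in L minus A. None of the repressors was called in M minus C, by limma with the same limits, where 2.61% of all genes were.

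Between the inbred parents, 2 of 64 repressors were called in root in C minus A. In B minus A, C minus B and D minus B 1 each was called, and 0 in D minus A and D minus C. Together 5 were called in at least 1 of the 6 pairs. The share of all genes called in at least 1 pair is not given, so the 5 cannot be set beside it. The 3 largest were Gh_A13G1490, higher in C (22.1, 17.7 and 15.2 FPKM) than in A (8.60, 6.0 and 7.98), Gh_D11G2553, higher in C (2.68, 5.32 and 2.17) than in B (0.910, 0.879 and 1.12), and the PAP1-type Gh_A05G1092, higher in D (15.8, 15.3 and 18.3) than in B (7.28, 8.79 and 6.16). None of these pairs of groups overlapped, and the log2 differences were 1.18, 1.09 and 1.06 (limma adjusted p = 1.41e-04, 3.33e-03 and 2.89e-05). Over all root genes 1.58% were called in C minus A, 1.07% in C minus B, 3% in D minus B, 1.82% in B minus A, 2.57% in D minus A and 2.97% in D minus C.

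No repressor was called between 2 hybrids in root, where 0.341% of all genes were called in H minus L, 0.349% in H minus M and 0.251% in M minus L.

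In leaf 2 repressors were called between inbreds, Gh_A13G1490 lower in C than in A by -1.16 and Gh_D11G2553 lower in B than in A by -1.03 (limma adjusted p = 1.71e-04 and 1.04e-04). The shares over all leaf genes were 1.63% in C minus A, 1.28% in B minus A, 2.24% in D minus A, 1.42% in C minus B, 1.69% in D minus B and 1.21% in D minus C. Gh_A13G1490 thus stood in opposite order in the tissues, C above A in root and C below A in leaf. Leaving out replicate 3 of A or of B in leaf took 1 of the 2 calls away.

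Root and leaf were then compared over all 7 genotypes. Of the 69 repressors tested, 11 were higher in root and 14 higher in leaf, 15.9% and 20.3%, beside 13.9% and 10% of all genes tested. By type, the IAA18-type genes (2 of 3), the PAP1-type (3 of 5) and the IAA9-type (3 of 7) were called higher in root and none of them in leaf. The unnumbered (5 of 14) and IAA14-type genes (3 of 6) were called higher in leaf and none of them in root. IAA16-type genes were called higher in leaf in 4 of 10 and in root in 1, and PAP2-type genes in 2 of 5 in each tissue.

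The largest differences toward leaf were those of the IAA14-type Gh_D07G2125 (12.7 to 32.1 FPKM in leaf and 1.47 to 3.52 in root, log2 difference root minus leaf -2.66), the IAA16-type Gh_A11G1164 (20.7 to 40.9 and 3.82 to 9.71, -2.13) and the unnumbered Gh_D08G0665 (1.64 to 6.93 and 0.147 to 0.726, -1.71). The scaffold gene Gh_Sca006585G01 (IAA14-type, -1.69) and Gh_A13G1489 (IAA16-type, -1.51) came next. In none of the first 3 did the tissues overlap.

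Toward root the largest were the IAA18-type Gh_A05G0356 (2.66 to 9.46 FPKM in root and 0.374 to 1.80 in leaf, log2 difference 1.88) and Gh_D05G0472 (3.70 to 6.86 and 0.623 to 1.39, 1.65). They were followed by the PAP1-type Gh_D10G0616 (9.01 to 23.8 and 3.05 to 5.66, 1.56), the IAA16-type Gh_D05G1216 (8.06 to 24.8 and 1.81 to 7.75, 1.49) and the PAP2-type Gh_D05G0249 (5.54 to 13.8 and 1.89 to 5.77, 1.48). Of these 5 genes only Gh_D05G0249 overlapped between tissues. All 10 of these differences had a limma adjusted p of at most 6.16e-18.

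**Figure D4:**
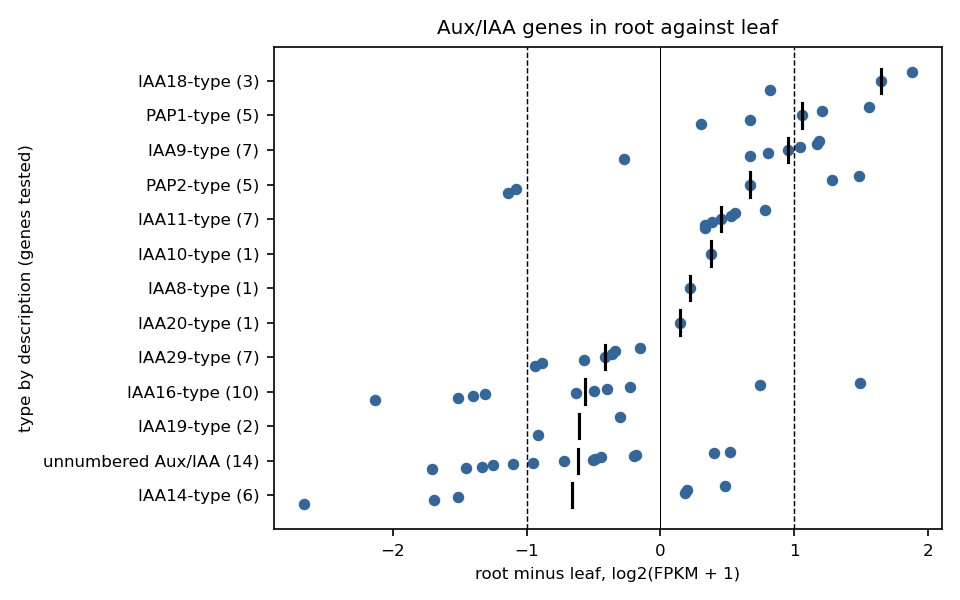
Difference root minus leaf in log2(FPKM + 1), averaged over the 7 genotypes (x axis), for the 69 repressors tested, by type (y axis, number of genes in brackets). Points are genes, black bars the median of a type, and dashed lines the limits. Medians run from -0.66 for the IAA14-type to 1.65 for the IAA18-type, and the IAA9-, IAA14-, IAA16- and PAP2-types and the unnumbered genes lie on both sides of 0.

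Since the family was lower in hybrid leaf and not in hybrid root, the difference of the hybrid effects between the tissues was tested itself, as an interaction in the fit of all 42 libraries. It was called for 8 of the 69 repressors, 11.6%, all with the hybrid effect higher in root than in leaf and 0 the other way. Over all 69603 genes tested 1.27% were called in that direction and 1.25% in the other. By the adjusted p alone 41 were higher and 2 lower, beside 12% and 15% of all genes. The median of the 69 was 0.41, beside -0.03 over all genes, and 59 of the 69 lay above 0.

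The largest interactions were those of Gh_A02G0340 (1.64 ± 0.155) and Gh_D02G0405 (1.63 ± 0.133), followed by Gh_D11G2552 (1.55 ± 0.0740), Gh_D10G1512 (1.52 ± 0.126) and Gh_A10G1020 (1.37 ± 0.173; SE, limma adjusted p at most 2.70e-07 in these 5). The 6 genes that fell in hybrid leaf were all among the 8. The interaction contains the leaf difference by which these 6 were called, so the overlap is no separate result. In root their hybrid differences were 0.39 for Gh_A02G0340, 0.31 for Gh_D02G0405, 0.24 for Gh_D11G2553, 0.13 for Gh_A10G1020, 0.09 for Gh_A11G2242 and 0.00 for Gh_D10G1512. The first 2 passed the adjusted p alone (limma adjusted p = 0.0161 and 0.00677) and the other 4 did not (0.0882, 0.494, 0.584 and 0.998).

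The other 2 of the 8 were the IAA16-type neighbours Gh_D11G2552 and Gh_A11G2241, the latter outside the 5 largest and named after its values were seen. In leaf they were lower in hybrids by the adjusted p alone, at -0.56 ± 0.0517 and -0.43 ± 0.0465 (SE; limma adjusted p = 1.67e-07 and 1.30e-06). Gh_D11G2552 ran from 13.8 to 19.8 FPKM in hybrid leaf and from 18.6 to 28.4 in inbred leaf. Thus on chromosome number 11 of both subgenomes the unnumbered gene was low in hybrid leaf and little different in root, and the IAA16-type gene beside it was moderately low in hybrid leaf and high in hybrid root.

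**Figure D5:**
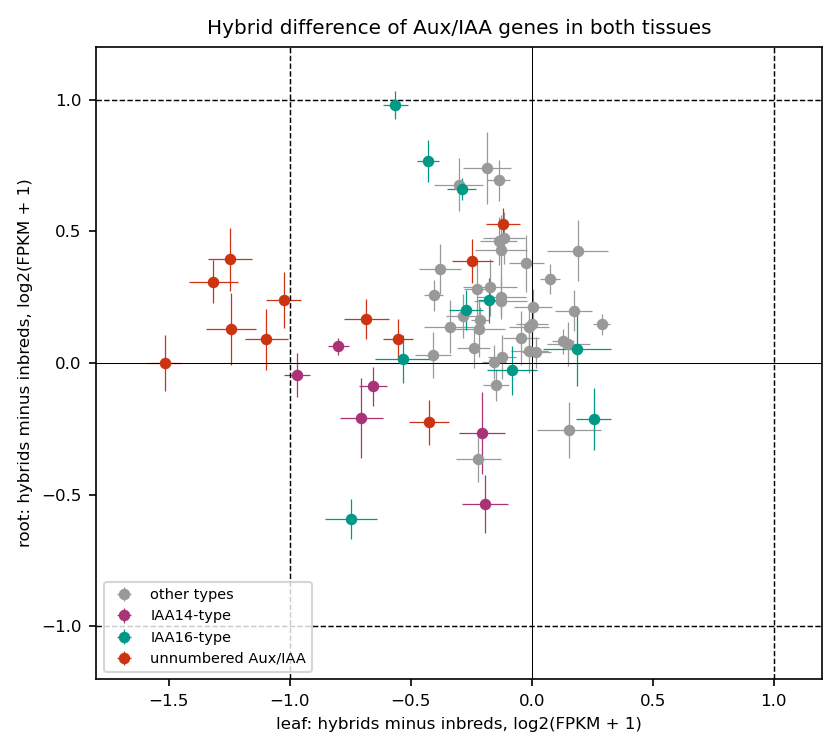
Hybrids minus inbreds in log2(FPKM + 1) in leaf (x axis) and root (y axis) for the 63 repressors tested in both tissues, with the IAA14-type, IAA16-type and unnumbered genes in colour and the other types in grey. Bars are standard errors and dashed lines the limits of 1 and -1. Of the 63 genes, 40 lie in the upper left, lower in leaf and higher in root, and 13 of these passed the adjusted p in both tissues; over all genes these shares were 17.9% and 2.24%.

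Of the 63 repressors tested in both tissues, 40 were below 0 in leaf and above 0 in root, 11 below in both, 10 above in both and 2 above in leaf only. Of all 45932 genes tested in both tissues 17.9% were below 0 in leaf and above 0 in root, 21.5% below in both, 39% above in both and 21.7% above in leaf only. The adjusted p was passed in both tissues, lower in leaf and higher in root, by 13 repressors (20.6%) and by 2.24% of all genes. Root and leaf were also compared within the inbreds and within the hybrids. Among inbreds 9 of the 69 were higher in root and 19 higher in leaf, and among hybrids 17 were higher in root and 9 in leaf. Over all genes tested these shares were 13.9% and 9.89% in inbreds and 14.7% and 10.5% in hybrids.

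The genes that act with the repressors were counted in the same fits. None of the 8 auxin receptor genes tested was called between hybrids and inbreds in either tissue. The same was true of the TOPLESS co-repressors (16 tested in root and 14 in leaf), the SAUR genes, a family of early auxin-response genes (4 and 6 tested of 150), and the auxin synthesis genes (2 tested in each tissue). Whether these lists and the repressors differ was not tested. Of 51 ARF genes outside the members, 1 rose in leaf, Gh_D05G0755 from 1.37 ± 0.395 FPKM in 12 inbred to 5.05 ± 0.720 in 9 hybrid libraries (mean and SD; log2 difference 1.36, limma adjusted p = 1.40e-10), and 0 changed in root. Over all genes 1.63% rose and 0.934% fell in leaf, and 1.28% rose and 0.847% fell in root.

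Among GH3 genes, which encode enzymes that conjugate auxin and other acids, 1 of 18 fell in leaf, beside 0.934% of all leaf genes, Gh_D13G0668 from 4.10 ± 0.819 to 1.14 ± 0.763 FPKM (log2 difference -1.31, limma adjusted p = 1.43e-08), and 0 of 34 changed in root. Among auxin transport genes 3 of 32 fell in root, beside 0.847% of all root genes, the largest fall being Gh_A05G3374, from 6.78 ± 3.38 to 1.29 ± 0.362 FPKM (log2 difference -1.64, limma adjusted p = 1.62e-07). In leaf 0 of 20 auxin transport genes were called. For the interaction 1 of 37 auxin transport genes was called higher and 3 lower, and 1 of 39 GH3 genes higher. Over all genes 1.27% were called higher and 1.25% lower. The 3 lower ones are those that fell in root, a difference the interaction contains. No gene of the other partner lists was called for the interaction.

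Of the other 20 matching rows, 12 ARF-type genes were tested in root and 6 in leaf, and 2 were at 0 in every leaf library. None was called between hybrids and inbreds in either tissue. Gh_D05G1792 came nearest in root, at a log2 difference of 0.85 ± 0.0949 (SE; limma adjusted p = 2.92e-06). It was above both parents in H, at 10.2, 6.13 and 7.99 FPKM against 2.77, 3.23 and 2.91 in A and 3.79, 3.04 and 3.38 in B, with no overlap and log2 differences of 1.17 and 1.03 (limma adjusted p = 1.71e-04 and 9.33e-04). It was also among the 5 of 12 ARF-type genes called higher in root than in leaf, led by Gh_D01G0951 (2.11), Gh_D05G1792 (2.08) and Gh_A01G0908 (1.95), with 0 higher in leaf, beside 13.9% and 10% of all genes. In leaf the ARF-type Gh_D05G1506 had all hybrid libraries (5.23 to 7.83 FPKM) above all inbred ones (2.86 to 5.13), inside the log2 limit at 0.45.

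The 4 phosphatases were tested in both tissues and none was called between hybrids and inbreds, and 1, Gh_A06G0288, was higher in root than in leaf (log2 difference 1.2). Neither GH3-type enzyme row passed the filter in either tissue.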

How the data were processed

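The authors made 42 paired-end RNA libraries from root and leaf of 7 genotypes. Reads were placed on the TM-1 genome by HISAT2 and summed to FPKM by StringTie, whose versions were not given in the sources used. The deposited table has 1 FPKM value per row and library, made by the authors, and no counts. Groups were taken from the labels. Members and lists were chosen with earlier results of these data known.

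Members were found by their descriptions and split by type. Values were used as log2(FPKM + 1), and rows reaching an FPKM of 1 in 3 libraries of the tissue were kept (59282 in root, 54835 in leaf, 69603 over both). limma 3.58.1 (R 4.3.3) fitted 1 mean per genotype with a mean-variance trend, without further scaling. Tests were 2-sided, adjusted by Benjamini-Hochberg over all rows tested, and called where the adjusted p was under 0.05 with a log2 difference beyond 1. Tissues were compared in 1 fit of the 42 libraries. Scripts were tested on simulated data.

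Named genes are those called between hybrids and inbreds or beyond both parents, the 5 most abundant per tissue, the 5 largest differences between tissues in each direction, the 5 largest interactions, the 3 largest called differences between inbreds or between hybrids, and in each other auxin list the largest rise and fall called. Others named were chosen after their values were seen.

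The settings tried in turn were quantile normalization, no filter, a pseudocount of 0.1, a block for the replicate number, no trend, no log2 limit, an unadjusted p, genotype means as units, the groups compared only, the groups of lower Q20 only, and each library left out. Plants of different genotypes shared replicate numbers, but residuals of same-numbered libraries did not move together (median correlation 7.15e-05 in root and -0.00756 in leaf over 63 pairs each). Root and leaf residuals of the same genotype and replicate number had a median correlation of 0.0094 over 21 pairs. The labels do not say whether such a pair is the same plant, so this cannot show that the pairing of tissues was without effect.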

Additional observations from a re-analysis of the deposited data

Results flagged for a closer look

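For 8 Aux/IAA genes the difference between hybrids and inbreds was not the same in root and leaf, by the interaction test of the fit over both tissues. The difference in root minus that in leaf, in log2(FPKM + 1), was 1.64 for Gh_A02G0340, 1.63 for Gh_D02G0405, 1.55 for Gh_D11G2552, 1.52 for Gh_D10G1512, 1.37 for Gh_A10G1020, 1.27 for Gh_D11G2553, 1.2 for Gh_A11G2241 and 1.19 for Gh_A11G2242. Of these, 6 are unnumbered Aux/IAA genes and 2 are IAA16-type genes. The direction was the same in all 8.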

How the results depend on the processing

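Counts here are over all 105 matching rows. Without the log2 limit they became 42 between hybrids and inbreds in leaf and 42 in root, 21 for H, 19 for M and 20 for L beyond both parents in leaf, 12, 7 and 10 in root, 21 between inbreds in leaf and 33 in root, 10 between hybrids in leaf, 81 between tissues and 47 for the interaction. With a pseudocount of 0.1 they became 5 for H beyond both parents in leaf, 1 for M in root, 3 between hybrids in leaf, 5 between inbreds in leaf and 10 in root, 5 between hybrids and inbreds in root and 14 for the interaction. Quantile normalization gave 5 for H in leaf, 0 for H in root and 1 between inbreds in leaf. Keeping only A, B and H gave 1 for H in root, and keeping only groups of lower Q20 gave 2 between hybrids and inbreds in root. With quantile normalization 40 repressors were lower and 1 higher in leaf, and 21 higher and 5 lower in root, by the adjusted p alone. With genotype means as units these were 15 lower and 1 higher in leaf and 7 higher and 0 lower in root, and within the groups of lower Q20 27 lower and 2 higher in leaf and 14 higher and 5 lower in root. Between hybrids and inbreds without the log2 limit, 7 members were higher and 35 lower in leaf, beside 24.3% and 13.4% of all leaf genes. In root 34 were higher and 8 lower, beside 21.5% and 14.6%. For the interaction 43 were higher and 4 lower, beside 12% and 15%. For the other counts and settings of this paragraph no share over all genes is given, so they are not read as results about the members. The cause of the changes between settings was not tested.

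Leaving out 1 library at a time gave 5 to 6 members between hybrids and inbreds in leaf and 0 to 1 in root, 0 to 2 for H beyond both parents in root, 1 to 3 between inbreds and 0 to 2 between hybrids in leaf, and 8 to 10 for the interaction. Beyond both parents in leaf it gave 2 to 4 for H, 5 to 7 for M and 3 to 5 for L. Between inbreds in root it gave 4 to 6. The replicate number as a block left 6 called between hybrids and inbreds in leaf and changed no other call count. Gh_D10G1512 in root, at a difference of -0.00043, took the other sign at 0.0256 with a pseudocount of 0.1 and ranged from -0.0623 to 0.0661 without single libraries. The file gives no read depth, so the counting error behind low values such as those of the IAA30-type genes is not known.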
